A study of Marchantia polymorpha and Arabidopsis thaliana with 54 samples.

Results

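Arabidopsis seedlings of the line eTK were compared with wild-type Col-0 seedlings, both at 22 °C and without heat. The 12 libraries, out of 54 in the series, are the 6 unheated Col-0 libraries and the 6 unheated eTK libraries. The labels give the genotype of eTK as a knockout of HSFA1A, HSFA1B and HSFA1D, and Col-0 as the wild type. Both lines grew on agar with sucrose in continuous light and were sampled as whole seedlings at 7 days, and neither received heat or another agent. In each line, replicates 1 to 3 carry the label batch 1 and replicates 4 to 6 the label batch 2. The labels do not say in which accession the eTK line was made, or how many lines or seedlings stand behind a library. Differences in the genome sequence of the lines, including its effect on how many reads map to a gene, therefore cannot be told apart from differences in expression. Whether replicates are separate cultures is not labelled either, and a p-value here covers only the spread among these libraries, part or all of which may be technical.

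Class A1 heat shock factors are transcription factors that bind heat shock elements, repeats of the unit nGAAn in alternating orientation, and start the transcription of chaperone genes when proteins unfold. Between stresses they are held back by HSP70 and HSP90 chaperones. Chaperones fold new proteins and refold damaged ones, and many are also made in unstressed growing cells. Arabidopsis has 4 genes of the class, of which HSFA1E is not named in the genotype of eTK.

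The libraries held 63270189 to 110875442 counts each, and 21927 genes passed the filter on low counts. The first principal component, 53.35% of the variance, separated the lines, and the second, 22.3%, separated the batches. Levels are CPM, counts scaled to a common library total and corrected for library composition. A gene was called where edgeR's quasi-likelihood test with line and batch as terms gave a Benjamini-Hochberg adjusted p under 0.05. Differences are log2 of eTK over Col-0 with their standard error. A gene was called in both batches where it passed that test and also the tests within batch 1 and within batch 2, 3 against 3 libraries each, in the same direction.

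Of all genes tested 28.7% were called, 3178 (14.5%) higher and 3106 (14.2%) lower in eTK. Calls in both batches numbered 2225, or 10.1% of genes, 821 higher (3.74%) and 1404 lower (6.4%). By at least 2-fold over all libraries 6.62% of genes were called, 561 higher (2.56%) and 890 lower (4.06%). Of these, 349 higher genes (1.59%) and 679 lower genes (3.1%) were also called in both batches, 1028 or 4.69% in all. The fold was taken over all 12 libraries, and 182 of the 1028 were under 2-fold within 1 batch or both. For 10.5% of genes the libraries of the lines did not overlap, with eTK above Col-0 for 4.33% and below for 6.13%. Batch 1 alone called 8182 genes (37%) and batch 2 alone 3571 (16.2%), with common dispersions of 0.0104 and 0.0239. The line difference itself differed between batches for 1335 genes (6.09%). Within the batches, 79 genes were called in opposite directions.

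**Figure D1:**
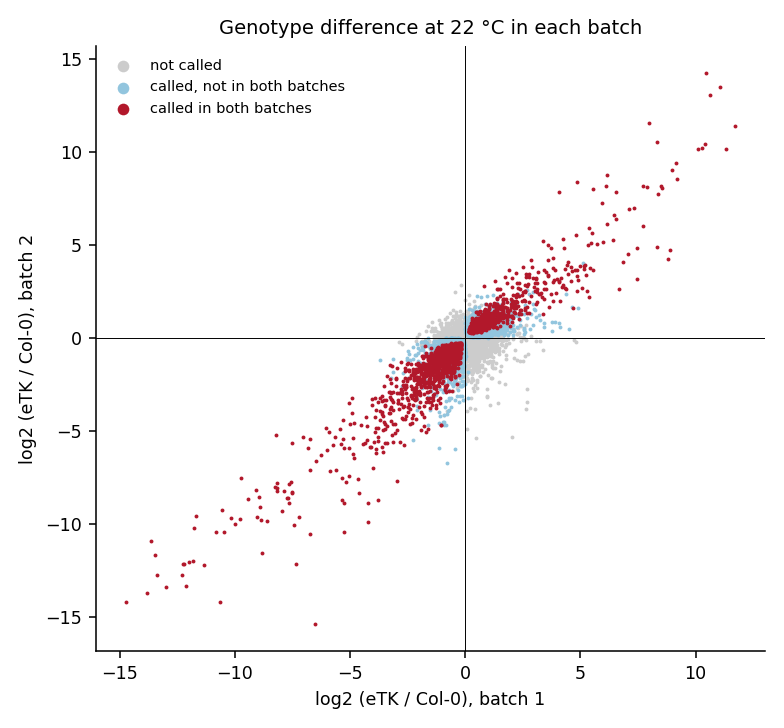
Log2 difference of eTK over Col-0 in batch 1 (x axis) and in batch 2 (y axis), 1 point per gene, with 3 libraries of each line in each batch. Red points are the 2225 genes called in both batches, blue points genes called over all libraries but not in both batches, grey points genes not called. Points far from 0 on both axes have almost no counts in 1 line, and their fitted differences depend on the prior count.

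The 4 HSFA1 genes went in different directions. HSFA1B (AT5G16820, chromosome 5, 5530195 to 5532889, TAIR10.1 as for all positions) lay at 11.4 to 16.6 CPM (median 13.5) in Col-0 and 1.07 to 2.04 CPM (median 1.69) in eTK. It fell by 3.09 on the log2 scale (SE 0.14, adjusted p = 2.53e-09). HSFA1D (AT1G32330, chromosome 1, 11656964 to 11660471) lay at 14.9 to 17.4 CPM (median 16.1) in Col-0 and 5.69 to 7.34 CPM (median 5.84) in eTK and differed by -1.39 ± 0.07 (adjusted p = 7.77e-09). The libraries of the lines did not overlap for either gene. HSFA1A (AT4G17750, chromosome 4, 9869818 to 9871646) went against its label. It lay at 5.25 to 7.75 CPM (median 7.10) in Col-0 and 10.3 to 15.3 CPM (median 13.8) in eTK, again without overlap, and was higher in eTK by 0.97 ± 0.10 (adjusted p = 9.63e-06), with 0.95 in batch 1 and 0.97 in batch 2. Counts over a whole gene do not show whether a transcript is intact, so the line is called eTK by its label throughout. HSFA1E (AT3G02990, chromosome 3, 673428 to 676428) lay at 4.30 to 6.94 CPM (median 5.48) in Col-0 and 4.52 to 7.70 CPM (median 6.71) in eTK, with overlap, and was not called (0.21 ± 0.14, adjusted p = 0.289). Batch 1 alone did call it higher, at 4.30 to 6.19 CPM in Col-0 and 6.68 to 7.70 CPM in eTK. In batch 2 it had the other sign and was not called, at 5.22 to 6.94 CPM and 4.52 to 7.01 CPM.

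Other heat shock factors moved in both directions. The list of 21 heat shock factors includes the HSFA1 genes, and 19 of its genes were tested. Of these, 4 were called higher, HSFA1A among them, and 4 lower, HSFA1B and HSFA1D among them (21.1% each). The shares of all genes were 14.5% and 14.2%, and the median of the list was -0.02. HSFA2 (AT2G26150), a factor that HSFA1 proteins induce in heat and that prolongs the response, lay at 0.439 to 1.79 CPM (median 1.22) in Col-0 and 0.0214 to 0.653 CPM (median 0.199) in eTK. Its libraries overlapped over the whole set but not within a batch, and it fell by 2.05 (SE 0.42, adjusted p = 0.00229). HSFA3 (AT5G03720), a factor of the later heat response that DREB2A activates, was higher without overlap, at 5.05 to 6.83 CPM (median 6.04) in Col-0 and 8.62 to 11.9 CPM (median 10.1) in eTK (0.76 ± 0.06, adjusted p = 5.6e-07). HSFA6B rose by 0.71 and HSFC1 by 0.31 over all libraries but not in both batches, and HSFB2B fell by 0.30 in the same way. HSFA6A and HSFA7B were under the filter on low counts, with at most 36 counts in a library.

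Chaperone genes were lower in unheated eTK seedlings. In the list of HSP70, HSP90 and HSP100 genes 21 of 22 were tested, 14 were called lower (66.7%, beside 14.2% of all genes) and 1 higher. In both batches 11 were lower (52.4%, beside 6.4%). The median of the list was -0.56, with -0.47 in batch 1 and -0.57 in batch 2, beside 0.013 for all genes. Together the list took 0.417% to 0.520% of a library's counts in Col-0 and 0.281% to 0.390% in eTK, without overlap. The sum rests in large part on HSC70-1, with a median of 1898 CPM in Col-0. On this measure the lines overlapped for co-chaperones and chaperonins, at 0.291% to 0.344% in Col-0 and 0.177% to 0.320% in eTK. They also overlapped for small heat shock proteins, at 0.00981% to 0.0151% and 0.00629% to 0.0113%. In whole seedlings, fewer cells of a type and less RNA per cell cannot be told apart.

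HSC70-1 (AT5G02500), a main cytosolic HSP70 of unstressed cells, lay at 1726 to 2081 CPM (median 1898) in Col-0 and 1241 to 1514 CPM (median 1294) in eTK and fell by 0.52 (SE 0.07, adjusted p = 6.07e-05). Its neighbour on chromosome 5, HSC70-2 (AT5G02490), fell further, from 21.5 to 56.8 CPM (median 33.0) to 3.52 to 8.56 CPM (median 5.01), a difference of -2.77 ± 0.11 (adjusted p = 3.83e-10) that was the same to 2 digits in both batches (-2.77 in batch 1 and -2.78 in batch 2). HSC70-3 (AT3G09440), the remaining copy, lay at 209 to 286 CPM (median 229) in Col-0 and 154 to 184 CPM (median 159) in eTK (-0.56 ± 0.07, adjusted p = 3.4e-05). None of the 3 overlapped between lines. They are close copies, so the split of reads between them is uncertain.

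HSP70-4 (AT3G12580), a heat-inducible cytosolic HSP70, had the largest change of the line difference between batches in this list. It lay at 10.4 to 11.4 CPM in batch 1 and 41.0 to 48.5 CPM in batch 2 of Col-0, and at 2.90 to 6.14 CPM (median 3.25) in eTK. The difference was -2.60 ± 0.31 over all libraries (adjusted p = 3.28e-05), -1.71 in batch 1 and -3.47 in batch 2. HSP90.1 (AT5G52640), the heat-inducible cytosolic HSP90, had the same layout, with 10.3 to 15.1 CPM in batch 1 and 27.0 to 34.9 CPM in batch 2 of Col-0 and 2.62 to 3.84 CPM (median 2.95) in eTK (-2.75 ± 0.20, adjusted p = 3.18e-07). HSP101 (AT1G74310), the disaggregase needed for acquired heat tolerance, lay at 12.9 to 22.1 CPM (median 16.6) in Col-0 and 7.28 to 8.55 CPM (median 7.85) in eTK (-1.06 ± 0.11, adjusted p = 5.53e-06). For these 3 genes the Col-0 level was higher in batch 2, and the line difference was larger there, by -1.75, -1.09 and -0.59 for batch 2 minus batch 1 (adjusted p of the interaction 0.0103, 0.0174 and 0.0236).

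The cytosolic HSP90.2 and HSP90.3, close copies on chromosome 5 that may share reads, lay at 287 to 342 CPM (median 322) and 271 to 326 CPM (median 289.9) in Col-0. In eTK they lay at 158 to 217 CPM (median 176) and 128 to 197 CPM (median 157) (-0.84 ± 0.08 and -0.93 ± 0.07, adjusted p = 3.65e-06 and 4.41e-07). HSP90.4, the third close copy, was not called (-0.09 ± 0.07, adjusted p = 0.395). Batch 1 alone called it lower, and in batch 2 it had the other sign. The mitochondrial HSP90.6 and MTHSC70-2 were lower in both batches (-0.74 and -0.62), and the plastid HSP90.5 and CPHSC70-2 over all libraries alone (-0.61 and -0.56). HSP70-5 (AT1G16030), another cytosolic HSP70, was the only member called higher, from 4.73 to 7.02 CPM (median 6.13) to 11.6 to 16.9 CPM (median 13.7), without overlap (1.21 ± 0.07, adjusted p = 1.33e-08).

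**Figure D2:**
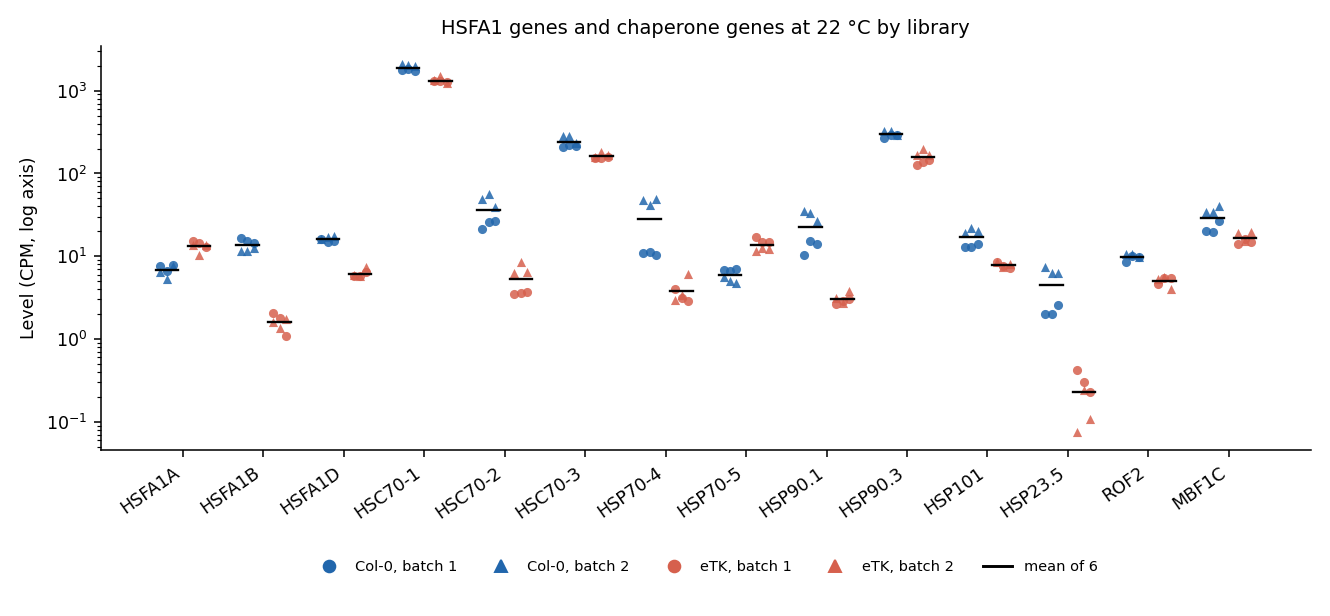
Level of 3 HSFA1 genes and 11 chaperone or heat-response genes in each of the 12 libraries, in CPM on a log axis. Circles are batch 1, triangles batch 2, and bars the mean of 6 libraries. HSFA1A and HSP70-5 lie higher in eTK and the other 12 genes lower. The Col-0 batches overlap only for HSFA1A, HSP90.3 and ROF2, and lie furthest apart on this axis for HSP70-4, HSP90.1 and HSP23.5.

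Small heat shock proteins, which hold unfolded proteins in solution, ranged widely in control seedlings, from a mean of 0.543 CPM for HSP26.5 to 48.6 CPM for HSP18.5 among the Col-0 libraries. Of 19 genes 13 were tested, and 7 were called lower (53.8%, beside 14.2% of all genes) and none higher. In both batches 6 were lower (46.2%, beside 6.4%). Of the 13, 12 reached the cutoff of the count filter in every library of both lines, and HSP23.5 in every Col-0 library and 4 eTK libraries. The other 6 genes had at most 104 counts in a Col-0 library and at most 10 in an eTK library. HSP23.5 (AT5G51440), a mitochondrial member, lay at 1.99 to 7.47 CPM (median 4.44) in Col-0 and 0.0754 to 0.418 CPM (median 0.235) in eTK (-4.07 ± 0.45, adjusted p = 1.75e-05). In Col-0 it lay at 1.99 to 2.59 CPM in batch 1 and 6.29 to 7.47 CPM in batch 2. The cytosolic HSP17.8 lay at 0.901 to 1.76 CPM (median 1.29) in Col-0 and 0.190 to 0.605 CPM (median 0.393) in eTK (-1.86 ± 0.21, adjusted p = 1.75e-05). HSP17.4, also cytosolic, lay at 0.493 to 1.69 CPM (median 0.683) in Col-0 and 0.138 to 0.313 CPM (median 0.263) in eTK (-1.74 ± 0.32, adjusted p = 0.00109). Neither gene overlapped between the lines.

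Co-chaperones and chaperonins moved with them. All 21 were tested, and 15 were called lower (71.4%, beside 14.2% of all genes) and none higher. In both batches 9 were lower (42.9%, beside 6.4%). ROF2 (AT5G48570), an HSP90-binding immunophilin, lay at 8.50 to 10.7 CPM (median 9.87) in Col-0 and 3.96 to 5.57 CPM (median 5.41) in eTK (-0.96 ± 0.10, adjusted p = 7.1e-06). FES1A (AT3G09350), which binds cytosolic HSP70, lay at 13.8 to 17.1 CPM (median 15.0) in Col-0 and 7.01 to 10.5 CPM (median 8.66) in eTK (-0.79 ± 0.09, adjusted p = 1.82e-05). The plastid chaperonin subunit CPN60B2 overlapped between lines, at 173 to 237 CPM (median 198) in Col-0 and 62.6 to 178 CPM (median 99.8) in eTK, yet not within a batch (-0.93 ± 0.13, adjusted p = 0.000151). HOP3, which bridges HSP70 and HSP90, differed by -0.79 ± 0.13 and the DnaJ protein J2 by -0.64 ± 0.07 (adjusted p = 0.000344 and 9.73e-06). BAG6, HSBP, HOP1 and P23-2 were not called, with differences between 0.01 and 0.10, and neither were CPN60B1 (-0.09) and HSP60-2 (-0.08). The batches disagreed for some of these. CPN60B1 and HSP60-2 were called lower in batch 1 alone and had the other sign in batch 2. HSBP was called higher in batch 2 alone and had the other sign in batch 1.

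Of 12 heat-responsive regulators tested, 4 were called lower and 2 higher, beside 14.2% and 14.5% of all genes, and 2 were lower and none higher in both batches. MBF1C (AT3G24500), a coactivator needed for heat tolerance, lay at 19.9 to 39.9 CPM (median 30.2) in Col-0 and 14.1 to 19.5 CPM (median 15.7) in eTK, without overlap (-0.78 ± 0.11, adjusted p = 0.000111). The galactinol synthases, which make raffinose precursors, went opposite ways, with GOLS1 at -1.10 ± 0.22 in both batches (adjusted p = 0.00225) and GOLS2 at 1.47 over all libraries alone. In the endoplasmic reticulum 6 of 20 folding genes were called lower (30%, beside 14.2%) and 1 higher (5%, beside 14.5%). Lower in both batches were 2 (10%, beside 6.4% of all genes). These were BIP1, a lumenal HSP70 (-0.64 ± 0.07), and the DnaJ protein ERDJ3A (-1.36 ± 0.16, adjusted p = 1.03e-05 and 2.48e-05). BIP2, a close copy that may share reads with BIP1, was called higher (0.23), so the direction of the pair is uncertain.

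Heat shock elements were searched as 3 units in a row, that is GAA NN TTC NN GAA or TTC NN GAA NN TTC without the spaces, on both strands from 250 bases before to 50 after each annotated gene start. Of 21825 nuclear genes 0.504% held this motif. Among the 55 tested genes of the 3 chaperone lists 5 held it (9.09%), and 4 of these 5 were called lower in both batches. The remaining gene, CPHSC70-2, was called lower over all libraries alone (-0.56). Of the 26 chaperone genes lower in both batches 4 held it (15.4%, 95% exact binomial interval 4.36% to 34.9%), and of the other 29 chaperone genes 1 (3.45%, 0.0873% to 17.8%). These intervals overlap. Of all 1399 nuclear genes lower in both batches 13 held it (0.929%, 0.496% to 1.58%), and of the 818 higher in both 1 (0.122%, 0.0031% to 0.679%), both with intervals that include the share of all nuclear genes. Of the 677 lower in both batches and by at least 2-fold 8 held it (1.18%, 0.512% to 2.32%), HSP70-4 and HSP17.4 among them. This interval lies just above the share of all nuclear genes. Of the 347 higher in the same way 1 held it (0.288%, 0.0073% to 1.6%), with an interval that includes that share. A match is a description of the sequence and not evidence of binding. The sequences of the 4 genes follow, from the RefSeq genome TAIR10.1, to show where the element lies in genes that were lower. They are written 5′ to 3′ on the gene's own strand, with the element in capitals. For HSP17.4 the 250 bases before the start are given, and for the others, whose element lies 21, 25 and 34 bases into the annotated transcript, the site alone.
HSP17.4 (chr3:16984868-16985117, minus strand): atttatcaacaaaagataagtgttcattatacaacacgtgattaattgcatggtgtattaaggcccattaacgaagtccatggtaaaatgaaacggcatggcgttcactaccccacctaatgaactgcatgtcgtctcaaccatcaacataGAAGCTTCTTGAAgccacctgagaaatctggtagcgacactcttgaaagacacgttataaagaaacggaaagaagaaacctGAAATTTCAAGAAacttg
HSP70-4 (chr3:3993846-3993874, minus strand): ttactcgtGAACGTTCTCGAAagctcttt
HOP3 (chr4:7341319-7341347, minus strand): aaaaattcGAAATTTCGAGAActctcttg
HSC70-3 (chr3:2905898-2905922, minus strand): atcgaaccGAACATTCTCGAAcctt
HSP17.4 holds the element at 2 places, the first starting 99 bases before the gene start. The differences of these genes ran from -2.60 (HSP70-4) over -1.74 (HSP17.4) and -0.79 (HOP3) to -0.56 (HSC70-3). HSP70-5, the chaperone that rose, and HSP90.1, which fell, held no 3-unit match in this window.

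Defence genes were lower in eTK, and more of them in batch 2. In the list of salicylate and pattern-triggered defence genes 12 of 24 were called lower (50%, beside 14.2% of all genes) and none higher. In both batches 5 were lower (20.8%, beside 6.4%). Batch 1 alone called 5 lower, beside 18.9% of all genes, and batch 2 alone 15, beside 10.6%, so the share in batch 1 was close to that of all genes. The median was -0.22 in batch 1 and -1.36 in batch 2. FRK1 (AT2G19190), a receptor kinase gene induced by bacterial flagellin, lay at 7.72 to 91.3 CPM (median 51.4) in Col-0 and 0.750 to 2.71 CPM (median 1.55) in eTK (-4.92 ± 0.67, adjusted p = 0.000135). FMO1 (AT1G19250), which makes the systemic immunity signal N-hydroxypipecolic acid, lay at 1.80 to 9.76 CPM (median 5.87) in Col-0 and 0.209 to 0.447 CPM (median 0.225) in eTK (-4.19 ± 0.36, adjusted p = 1.77e-06). Both genes were free of overlap, although Col-0 levels varied widely among libraries. PR1, the usual salicylate marker, was not called (-0.43 ± 0.65, adjusted p = 0.679). ICS1, which makes salicylate, was not called either (-0.45 ± 0.19, adjusted p = 0.0955).

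Receptor and regulator families shared this direction. Among cysteine-rich receptor-like kinases 20 of 37 tested were called lower (54.1%, beside 14.2% of all genes) and 1 higher (2.7%, beside 14.5%). In both batches 11 were lower (29.7%, beside 6.4%). CRK13 lay at 8.45 to 37.1 CPM (median 22.8) in Col-0 and 1.12 to 4.15 CPM (median 3.95) in eTK (-2.76 ± 0.40, adjusted p = 0.000192) and CRK20 at 0.173 to 4.41 CPM (median 1.65) in Col-0 and 0.0641 to 0.161 CPM (median 0.0976) in eTK (-4.11 ± 0.55, adjusted p = 9.3e-05). In the WRKY family of transcription factors 26 of 64 were called lower (40.6%) and 2 higher (3.12%), and 20 were lower in both batches (31.2%). WRKY41 (AT4G11070) lay at 1.93 to 2.64 CPM (median 2.25) in Col-0 and 0 to 0.119 CPM (median 0.0221) in eTK (-5.93 ± 0.44, adjusted p = 2.99e-07). WRKY71 fell from 0.231 to 2.58 CPM (median 0.894) to 0.0149 to 0.101 CPM (median 0.0472) (-4.29 ± 0.60, adjusted p = 0.000119). The family median was -0.08 in batch 1 and -0.77 in batch 2. Of the 143 intracellular immune receptor (NLR) genes tested, 58 were called lower (40.6%) and 12 higher (8.39%). In both batches 38 were lower (26.6%) and 6 higher (4.2%, beside 3.74% of all genes). NLR genes stand in clusters of near-identical copies, so their counts are uncertain. In eTK, CRK20, WRKY41 and WRKY71 lay near or under the cutoff of the count filter, and they entered the test through Col-0. Their p-values and their place among the lower genes therefore say nothing about the families. How many other members of these families entered in that way was not counted.

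Glutathione S-transferases, which attach glutathione to toxic compounds, went both ways over all libraries, with 11 of 39 called lower (28.2%) and 9 higher (23.1%). The shares of all genes were 14.2% and 14.5%. In both batches 8 were lower (20.5%, beside 6.4%) and 2 higher (5.13%, beside 3.74%). GSTF7, whose neighbour GSTF6 is nearly identical and may share its reads, lay at 59.1 to 525 CPM (median 266) in Col-0 and 16.4 to 31.7 CPM (median 20.8) in eTK (-3.51 ± 0.45, adjusted p = 8.83e-05), and GSTU8 at 24.4 to 117 CPM (median 61.1) in Col-0 and 1.58 to 8.04 CPM (median 3.80) in eTK (-3.69 ± 0.24, adjusted p = 1.22e-07). Of 19 early stress and touch genes 8 were called lower (42.1%) and 1 higher (5.26%). ERF6 (-1.62 ± 0.21) and the calmodulin-like TCH3 (-1.20 ± 0.14) fell in both batches. ZAT12, ZAT10 and WRKY40 did not pass the test (-0.33, -0.63 and -0.30).

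Of the genes lower in both batches and by at least 2-fold over all libraries, the 6 with the highest CPM include EXT4, EARLI1 and a peroxidase gene. EXT4 (AT1G76930), an extensin, lay at 529 to 2533 CPM (median 1296) in Col-0 and 248 to 275 CPM (median 255) in eTK (-2.38 ± 0.28, adjusted p = 3.4e-05). The eTK libraries lay close together there and the Col-0 libraries did not. EARLI1 (AT4G12480), a lipid-transfer-like protein of the wall, lay at 205 to 1123 CPM (median 849.5) in Col-0 and 19.1 to 69.9 CPM (median 60.2) in eTK (-3.80 ± 0.42, adjusted p = 1.89e-05). A peroxidase gene, AT5G64120, lay at 309.8 to 1297 CPM (median 767) in Col-0 and 38.7 to 73.0 CPM (median 65.7) in eTK (-3.66 ± 0.32, adjusted p = 2.12e-06). CWLP, DIN10 and GER3 completed the set, at -1.20 ± 0.16, -1.01 ± 0.10 and -1.09 ± 0.20 (adjusted p = 0.0001, 3.49e-06 and 0.00131). Within batch 2 these 3 were under 2-fold, at -0.93, -0.97 and -0.46.

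**Figure D3:**
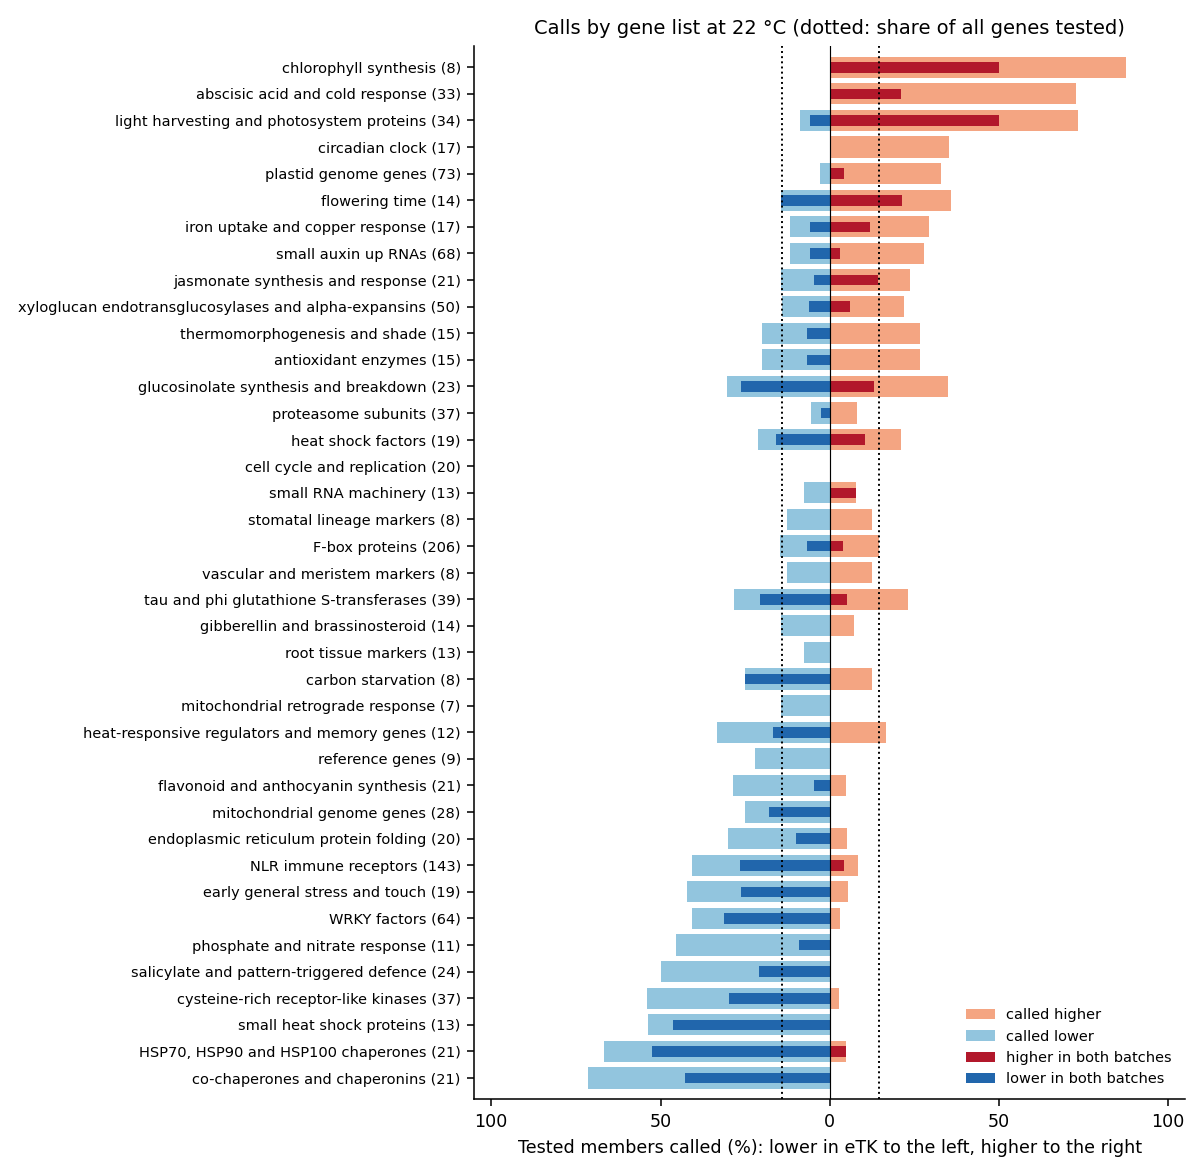
Share of the tested members of each gene list (number tested in brackets) that was called higher (right) or lower (left) in eTK. Light bars are calls over all 12 libraries, dark bars calls in both batches, and dotted lines the 14.5% and 14.2% of all genes called higher and lower. The seed list is left out. Chaperone, defence and receptor lists extend to the left, and chlorophyll, abscisic acid and light-harvesting lists to the right.

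Light-harvesting genes were higher in eTK. Of 34 genes of light harvesting, photosystems and Rubisco 25 were called higher (73.5%, beside 14.5% of all genes) and 3 lower (8.82%, beside 14.2%). In both batches 17 were higher (50%, beside 3.74%) and 2 lower (5.88%, beside 6.4%). These genes also differed between batches in both lines. LHCB2.1 (AT2G05100), an antenna protein of photosystem II, lay in batch 1 at 516 to 692 CPM in Col-0 and 1555 to 1877 CPM in eTK. In batch 2 it lay at 67.8 to 78.0 CPM and 143 to 185 CPM. Within each batch the lines did not overlap, and over all libraries they did (1.34 ± 0.10, adjusted p = 4.09e-07). LHCB2.3, LHCB2.2 and LHCB1.1 showed the same layout, at 1.86 ± 0.15, 1.36 ± 0.09 and 1.16 ± 0.10 (adjusted p = 1.18e-06, 6.23e-08 and 1.5e-06). With no batch term none of these 4 was called (adjusted p = 0.288, 0.13, 0.473 and 0.427), with differences of 1.47, 1.72, 1.30 and 1.30. Copies of LHCB1 and LHCB2 are nearly identical, and the split of reads among them is uncertain. LHCB4.2 and LHCB4.3, which encode forms of a minor antenna protein, were lower in both batches (-0.64 and -0.85). RBCS1B, a Rubisco small subunit gene with close copies, was lower over all libraries alone (-0.43).

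Chlorophyll synthesis genes followed, with 7 of 8 called higher (87.5%, beside 14.5% of all genes) and 4 in both batches (50%, beside 3.74%). GLK1 (AT2G20570), a factor that activates chloroplast genes, lay at 85.3 to 118 CPM (median 97.9) in Col-0 and 131 to 174 CPM (median 155) in eTK, without overlap (0.63 ± 0.06, adjusted p = 1.92e-06). PORB, which reduces protochlorophyllide in light, differed by 0.60 ± 0.06 (adjusted p = 1.29e-05). Its call was lost with no batch term (0.58, adjusted p = 0.16). Of 73 tested genes encoded in the plastid 24 were called higher (32.9%, beside 14.5%) and 2 lower (2.74%, beside 14.2%). Only 3 were higher in both batches (4.11%, beside 3.74% of all genes). The count of 24 was 9 without Col-0 replicate 4 or without eTK replicate 5, 10 without eTK replicate 3, 12 without Col-0 replicate 2 or 5, 14 without Col-0 replicate 3 or eTK replicate 6, and 37 without eTK replicate 4. With no batch term it was 7.

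Genes of abscisic acid and cold response were higher, mostly in batch 1. All 33 were tested, and 24 were called higher (72.7%, beside 14.5% of all genes) and none lower (beside 14.2%). In both batches 7 were higher (21.2%, beside 3.74%). With no batch term the 24 became 14. Batch 1 alone called 27 higher, beside 18.1% of all genes, and batch 2 alone 7, beside 5.54%, and the median was 1.00 in batch 1 and 0.32 in batch 2. RD29B (AT5G52300), a gene strongly induced by abscisic acid, lay at 0.380 to 0.685 CPM (median 0.627) in Col-0 and 2.88 to 16.2 CPM (median 7.49) in eTK (3.60 ± 0.32, adjusted p = 2.22e-06). COR15A (AT2G42540), which protects chloroplast membranes in cold, lay at 0.136 to 0.854 CPM (median 0.346) in Col-0 and 0.402 to 10.7 CPM (median 2.13) in eTK, with overlap over all libraries (2.88 ± 0.43, adjusted p = 0.000248). NCED3, the rate-limiting enzyme of abscisic acid synthesis in stress, and RAB18, a dehydrin, were higher in both batches (1.91 and 2.38), as were the phosphatase genes HAI1, HAI3 and ABI2 (2.00, 2.29 and 0.83).

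The seed genes that passed the filter on low counts were counted mainly in eTK. Of 11 seed and embryo genes 5 were tested, and these reached the cutoff of the count filter in every eTK library but in only 2 to 4 of the 6 Col-0 libraries. They entered the test through eTK, so their number called, their p-values and their lack of overlap say nothing about the list. The 6 genes under the filter had at most 48 counts in a Col-0 library and at most 194 in an eTK library. The highest count was in eTK for CRB, SESA1, SESA2, SESA4 and EM1. For SESA3 it was in Col-0 (48, beside 38 in eTK), and for SESA4 the values were close (14 in Col-0 and 20 in eTK). CRA1 (AT5G44120), a cruciferin storage protein, lay at 0.109 to 1.54 CPM (median 0.255) in Col-0 and 4.71 to 38.1 CPM (median 13.3) in eTK (4.63 ± 0.69, adjusted p = 0.000249). OLEO2 (AT5G40420), an oil body protein, lay at 0 to 0.318 CPM (median 0.132) in Col-0 and 0.968 to 6.47 CPM (median 2.44) in eTK (4.30 ± 0.57, adjusted p = 9.68e-05). Neither overlapped, but eTK libraries differed among themselves by more than 6-fold. The part of seed tissue or of the stage of the seedlings in the abscisic acid result was not tested. Of the other tissue lists, root markers had 1 of 13 called (lower), stomatal markers 1 of 8 higher and 1 lower, and vascular and meristem markers 1 of 8 higher and 1 lower. The share was 7.69% for root markers, and 12.5% each way for stomatal and for vascular and meristem markers. Of all genes 14.2% were called lower and 14.5% higher. None of these markers was called in both batches. No gene of 20 in the cell cycle list was called by edgeR (0 at an unadjusted p below 0.05, 0 by DESeq2), and batch 1 alone called 5 of them lower. Of 9 reference genes 2 were called lower, UBQ10 (-0.21) and GAPC1 (-0.28), neither in both batches.

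**Figure D4:**
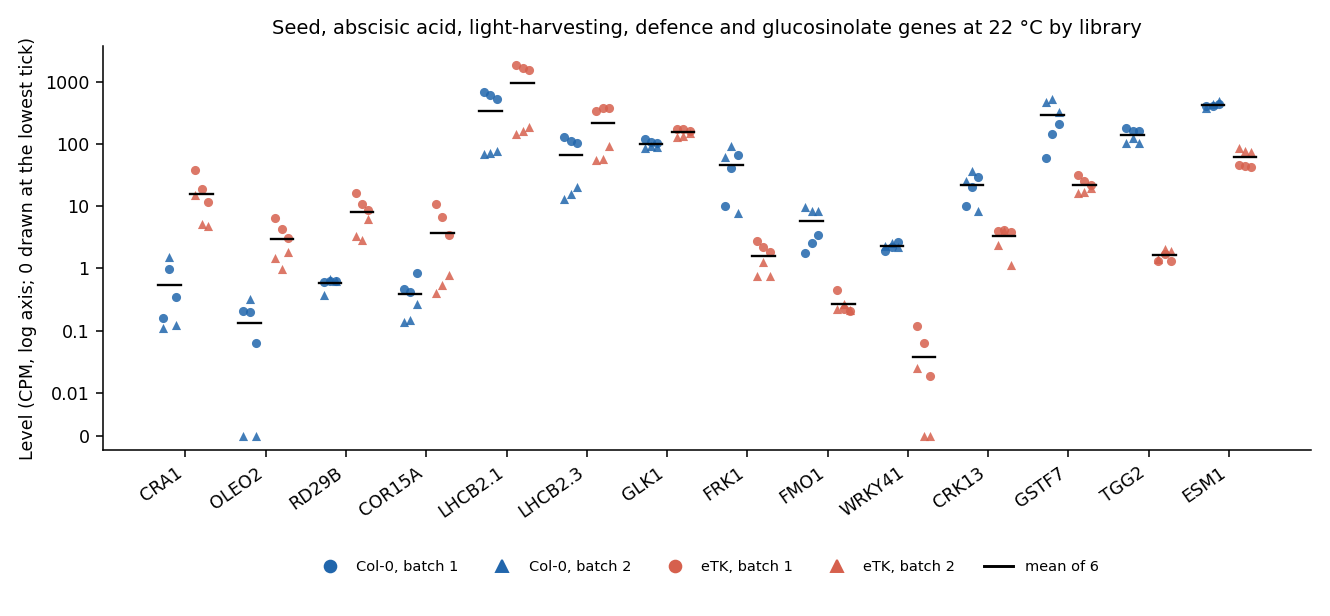
Level of 14 genes for seed storage, abscisic acid response, light harvesting, defence and glucosinolate breakdown in each of the 12 libraries, in CPM on a log axis with 0 drawn at the lowest tick. Circles are batch 1, triangles batch 2, and bars the mean of 6 libraries. The batches lie far apart for LHCB2.1 and LHCB2.3 in both lines, while TGG2 and ESM1 separate the lines in every library.

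Glucosinolates are sulfur compounds that myrosinases break down when tissue is wounded. In this list 8 of 23 were called higher (34.8%, beside 14.5% of all genes) and 7 lower (30.4%, beside 14.2%). In both batches 3 were higher (13%, beside 3.74%) and 6 lower (26.1%, beside 6.4%). The myrosinase gene TGG2 (AT5G25980, chromosome 5, 9072708 to 9075777) lay at 102 to 183 CPM (median 140.4) in Col-0 and 1.31 to 2.03 CPM (median 1.58) in eTK and fell by 6.40 (SE 0.18, adjusted p = 2.12e-11). TGG1, its close relative, was not called (0.21 ± 0.22, adjusted p = 0.524). ESM1 (AT3G14210), which shifts breakdown from nitriles to isothiocyanates, lay at 381 to 481 CPM (median 419) in Col-0 and 42.0 to 86.7 CPM (median 60.7) in eTK (-2.84 ± 0.13, adjusted p = 3.6e-09). MAM1 and MAM3, neighbours that set side chain length, went opposite ways (-1.05 in both batches and 1.05 over all libraries alone). The regulator MYB76 rose by 2.00 and MYB51 fell by 1.06, both in both batches.

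The FLC clade of flowering repressors was also split. FLC and MAF3 were higher in both batches (1.05 and 1.31), MAF4 (-2.56 ± 0.21) and MAF5 (-1.57 ± 0.18) were lower, and MAF1 and MAF2 were not called (0.00 and -0.08). MAF4 lay at 2.53 to 5.24 CPM (median 3.37) in Col-0 and 0.440 to 0.778 CPM (median 0.593) in eTK. MAF2 to MAF5 are neighbouring copies, so their reads may be shared. In the jasmonate list 5 of 21 were called higher (23.8%, beside 14.5% of all genes) and 3 lower (14.3%, beside 14.2%). In both batches 3 were higher (14.3%, beside 3.74%) and 1 lower (4.76%, beside 6.4%). AOS (AT5G42650), the enzyme that commits lipid peroxides to jasmonate synthesis, lay at 62.2 to 97.6 CPM (median 76.1) in Col-0 and 128 to 256 CPM (median 183) in eTK (1.22 ± 0.12, adjusted p = 6.23e-06). VSP1, a vegetative storage protein induced by jasmonate, differed by 1.56 ± 0.32 (adjusted p = 0.00243). SAUR19, an auxin-induced growth gene with close copies beside it, lay at 0.136 to 0.462 CPM (median 0.248) in Col-0 and 2.60 to 7.61 CPM (median 4.44) in eTK (4.02 ± 0.26, adjusted p = 8.34e-08). GASA6, a gibberellin-regulated peptide gene, was among the 6 called higher with the most counts, at 1.41 ± 0.12 (adjusted p = 1.61e-06).

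Over all genes batch 1 called more than batch 2, and several lists did so too. Of 17 iron and copper genes 12 were called higher in batch 1 alone, beside 18.1% of all genes, and 2 in batch 2 alone, beside 5.54%. In the interaction test 8 of the 17 differed between batches, beside 6.09% of all genes. Of 11 phosphate and nitrate genes 8 were lower in batch 1 alone, beside 18.9%, and 2 in batch 2 alone, beside 10.6%, and 7 differed in the interaction test. The phosphate transporter PHT1;4 was the member lower in both (-1.45 ± 0.21, adjusted p = 0.000171). In the clock list 6 of 17 were called higher over all libraries (35.3%, beside 14.5% of all genes) and none in both batches. The 6 became 3 without eTK replicate 2, 4 or 6 or with a replicate block, and 0 with no batch term. The 3 genes with the smallest p for a difference between batches were UCC2 (uclacyanin, a copper protein), AT2G28570 (uncharacterized) and AT1G30730 (a berberine bridge enzyme-like oxidase). UCC2 differed by 0.13 in batch 1 and -1.87 in batch 2 (interaction -2.00, adjusted p = 7.77e-07). AT2G28570 differed by 0.44 in batch 1 and -1.65 in batch 2 (interaction -2.08, adjusted p = 7.93e-05). AT1G30730 was lower in both, by -0.82 in batch 1 and -2.95 in batch 2 (interaction -2.13, adjusted p = 0.000493).

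Other growth and stress lists had calls in both directions. The shares of the whole set of tested genes were 14.5% for higher and 14.2% for lower, and 3.74% and 6.4% in both batches. Among 15 genes of thermomorphogenesis and shade 4 were called higher (26.7%) and 3 lower (20%), and none and 1 in both batches. The 4 became 2 without Col-0 replicate 1, 2 or 3, and 1 with no batch term. The growth regulator PIF4 (0.90) and the auxin-response genes IAA19 (0.93) and IAA29 (1.57) were higher over all libraries alone, and PIF3 (-0.84) was lower in both batches. Of 21 flavonoid genes 6 were called lower (28.6%) and 1 higher, with F3H, a flavanone hydroxylase, lower in both batches (-0.67) and chalcone synthase CHS over all libraries alone (-0.95). With no batch term none was called lower. Antioxidant enzymes had 4 of 15 called higher (26.7%) and 3 lower (20%), none and 1 in both batches, and the catalase CAT1 was lower in both batches (-0.27). Of 68 small auxin up RNAs 19 were called higher (27.9%) and 8 lower (11.8%), and 2 and 4 in both batches. Of 50 xyloglucan endotransglucosylases and expansins 11 were called higher (22%) and 7 lower (14%), and 3 each way in both batches. F-box genes were called at the background share, 30 higher and 30 lower of 206 (14.6% each). Proteasome subunits had 3 of 37 called higher and 2 lower. DCL1, which processes microRNA precursors, was the member of 13 small RNA genes called higher, in both batches (0.50). Of 28 tested mitochondrial genome genes 7 were called lower and none higher, 5 of them lower in both batches.

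The largest differences were genes counted in 1 line and nearly absent in the other. Such genes can pass the filter on low counts through that 1 line alone, which limits what their p-values show. AT5G28919 (chromosome 5, 10940033 to 10941771), an uncharacterized gene, had 17032 counts over the 6 Col-0 libraries and 0 over the 6 eTK libraries, so it was at least 5744-fold lower with the eTK group set to 3 counts in all. AT5G36930 (chromosome 5, 14567444 to 14573206), an NLR gene, had 10514 and 0 counts (at least 3546-fold lower). AT3G18535, annotated as a tubulin-tyrosine ligase, had 6510 and 0 (at least 2196-fold lower). DAR4 (AT5G17890, chromosome 5, 5916862 to 5923494), an NLR gene also known as CHS3, had 28980 counts over the Col-0 libraries and 4 over the eTK libraries, at 53.8 to 69.5 CPM (median 60.0) in Col-0. AT4G12495 (chromosome 4, 7410116 to 7410397), uncharacterized and close to EARLI1, had 100071 and 17 counts.

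Other genes were nearly absent in Col-0. AT3G60950 and AT3G61030, C2-domain genes on chromosome 3, had 6 and 2 counts in Col-0 and 16124 and 7008 in eTK. For AT3G61030 the ratio was 3463 (95% counting interval 958 to 28604). The uncharacterized AT4G19240 had 4 and 13688 counts. AT1G19550, a glutathione S-transferase family gene, lay at 0.0730 to 0.245 CPM (median 0.117) in Col-0 and 34.3 to 52.1 CPM (median 40.4) in eTK (8.26 ± 0.15). AT5G15360 lay at 0.253 to 0.529 CPM (median 0.440) in Col-0 and 44.1 to 60.9 CPM (median 56.7) in eTK (7.03 ± 0.14, adjusted p = 4.45e-13 and 8.61e-13). Among genes encoded in the mitochondrion ATMG01170 had 218 counts in Col-0, present in each library, and 0 in eTK (at least 73.5-fold lower).

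Called genes were spread unevenly along the chromosomes. In order of position, 434 blocks of 50 tested nuclear genes were formed. Genes called in both batches and at least 2-fold over all libraries made up 4.69% of nuclear genes, with a median of 2 per block. They were absent from 91 blocks and reached 8 or more in 21 blocks, which held 220 of the 1024 such genes. Of these 21 blocks 11 lay on chromosome 5, 4 on chromosome 4, 3 each on chromosomes 1 and 3, and none on chromosome 2. The densest, chromosome 3 from 15986624 to 16381434, held 19 of 50, with 9 higher and 10 lower in eTK. The next, chromosome 5 from 15089678 to 15460767, held 16.

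Around the HSFA1 genes the share of called genes differed. Of the 50 tested genes nearest to HSFA1A, 25 on each side, 52.0% were called (95% exact binomial interval 37.4% to 66.3%), beside 28.6% of all nuclear genes tested. With 100 genes on each side it was 47.5% (40.4% to 54.7%). The share with 25 on each side was 26.0% around HSFA1B (14.6% to 40.3%), 14.0% around HSFA1D (5.82% to 26.7%) and 28.0% around HSFA1E (16.2% to 42.5%). With 100 on each side it was 37.0% around HSFA1B (30.3% to 44.1%), 20.0% around HSFA1D (14.7% to 26.2%) and 29.5% around HSFA1E (23.3% to 36.3%). Genes called in both batches and at least 2-fold over all libraries made up 6.0% of the 50 nearest genes around HSFA1A and around HSFA1B, or 3 genes each, and none around HSFA1D and HSFA1E. With 100 on each side these shares were 12.0%, 9.5%, 0.5% and 3.5%, in the order A to E. Neighbouring genes are not independent, and the intervals cover counting error only.

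**Figure D5:**
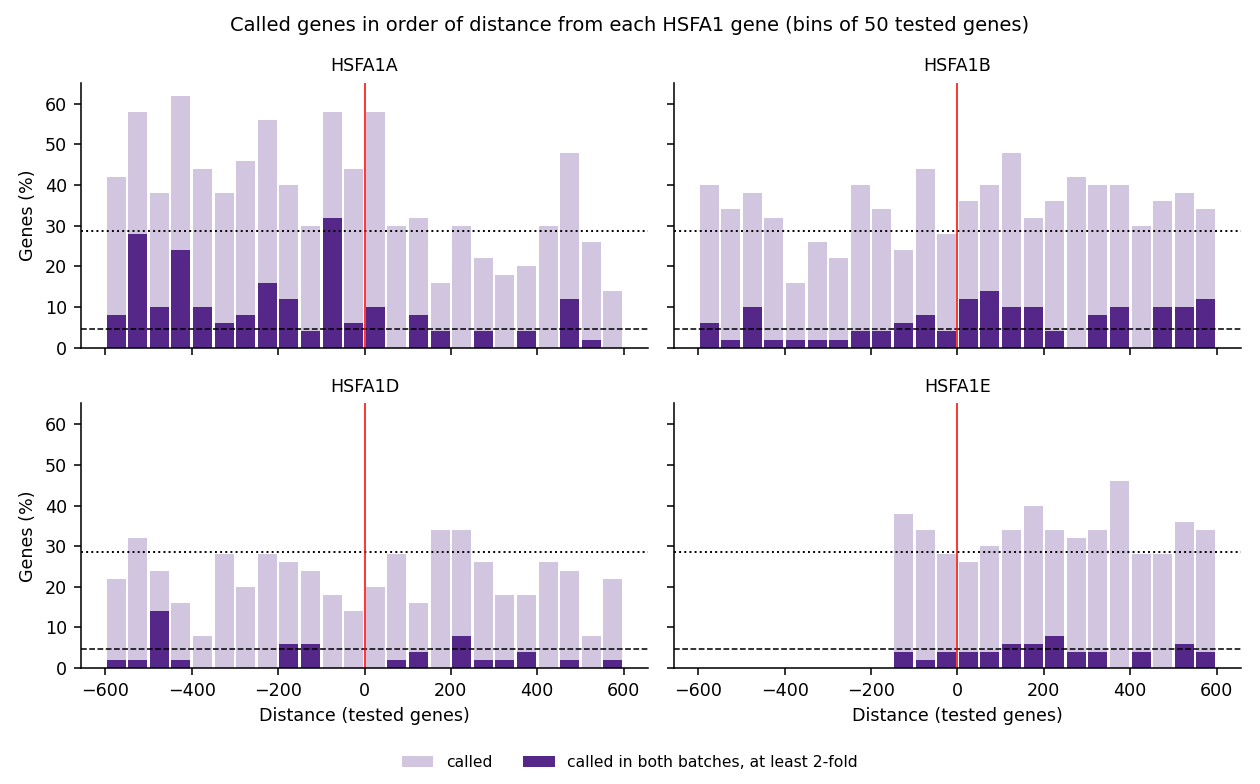
Share of tested genes called (light bars) and called in both batches and at least 2-fold over all libraries (dark bars) in bins of 50 tested genes, by distance in genes from each HSFA1 gene (red line). The dotted line marks 28.6% and the dashed line 4.69% of all nuclear genes tested. Dark bars stand above the dashed line in most bins on the left side of HSFA1A and few bins around HSFA1D.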

How the data were processed

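RNA-seq of 12 unheated Arabidopsis libraries was analysed. The authors deposited raw counts per gene for 27655 genes, made with STAR 2.7.9a, fastp 0.24.0 and featureCounts of Subread 2.0.6, per the submitters' processing notes. Not given in the sources used here are genome build, annotation, strand setting and the handling of multiply mapped reads. Between 75.4% and 81.4% of non-zero counts were even, so mates appear to have been counted singly. Counting intervals may therefore be too narrow, and halved counts were an alternative. The 30 replicate pairs within lines all differed beyond sampling noise (smallest chi-square per degree of freedom 7.71).

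The counts were fitted in R 4.3.3 with edgeR 4.0.16, using glmQLFit (robust) and glmQLFTest after filterByExpr and TMM scaling, with terms for line and batch over 12 libraries, within each batch, and with a line by batch interaction. The standard error is the absolute log2 difference divided by the square root of F, and may be too small where a line has almost no counts. The fits were tested on simulated counts. Groups without counts got a floor of 3 counts. Alternatives were other scaling, no filter, DESeq2 1.42.0, a replicate block, no batch term, all 18 Arabidopsis libraries, each library left out, and halved counts. Positions and descriptions come from TAIR10.1, matched by identifier for 27445 nuclear genes.

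Genes named are the HSFA1 genes, the 12 largest rises and falls called in both batches with at least 5 CPM in the higher line, the 6 with the highest CPM in each direction at 2-fold, 2 members per list, 3 interaction genes, and members of the chaperone and heat shock factor lists, of which those that matter most are printed. Other list members printed beside them were chosen after their values were seen. The comparison, the members and the 40 lists were chosen with earlier results of these data known. The 6 heated Arabidopsis libraries and 36 Marchantia samples were not part of the comparison.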

Additional observations from a re-analysis of the deposited data

Results flagged for a closer look

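For 12 of the genes above the line difference differed between batches (adjusted p of the interaction below 0.05, edgeR). As batch 2 minus batch 1 on the log2 scale it was -2.76 for HSP23.5, -1.75 for HSP70-4, -1.09 for HSP90.1 and -0.59 for HSP101. It was -2.26 for GSTF7, -2.04 for FMO1, -2.13 for AT1G30730, -2.08 for AT2G28570 and -2.00 for UCC2. It was 1.29 for GER3, 0.89 for TGG2 and 0.77 for ESM1. The line difference was larger in size in batch 2 for the 4 chaperone genes, GSTF7, FMO1 and AT1G30730, and in batch 1 for GER3, TGG2 and ESM1.

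Single libraries stood apart from the other 5 of their line for 10 genes, among 148 groups. Groups with 0 counts in all 6 libraries are among the 148 and could not be flagged. Chance flags about 1 in 20 groups of 6 like libraries, whereas each group here joins 2 batches of 3. In eTK the libraries set apart were HSC70-1 in replicate 5 (1514 CPM), HSP70-4 in replicate 6 (6.14 CPM), FMO1 in replicate 1 (0.447 CPM) and AT5G15360 in replicate 6 (44.1 CPM, the lowest). In Col-0 they were BIP1 in replicate 3 (251 CPM, the lowest), CWLP in replicate 3 (2222 CPM) and RD29B in replicate 4 (0.380 CPM, the lowest). AT4G19240 in Col-0 replicate 2 (0.0365 CPM), AT3G61030 in replicate 3 (0.0316 CPM) and AT3G60950 in replicate 3 (0.0949 CPM) were the only Col-0 libraries with any count of those genes. A group with counts in a single library is flagged whatever its value.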

How the results depend on the processing

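The number of genes called (6284) was 6274 with DESeq2's size factors, 6307 with library size alone, 7206 with DESeq2, 6157 with halved counts and 5455 to 7116 with each library left out. With no batch term it was 3762 and in batch 2 alone 3571. In batch 2 alone 34.2% of calls were higher in eTK, beside 50.6% over all libraries. Calls in both batches (2225) lay between 1614 and 2470 with each library left out, and were 3570 at an unadjusted p below 0.05 in each batch. The interaction count (1335) was 2766 with DESeq2 and 508 with all 18 libraries. With each library left out it ran from 498 to 3359, and was 634, 584, 680 and 685 without Col-0 replicates 1 to 4, 506, 498, 523 and 517 without eTK replicates 1, 2, 4 and 5, and 3359 without eTK replicate 6, so it is the least settled value here. The labels do not say whether libraries of the same replicate number were paired. The correlations of same-numbered deviations ran from -0.0874 to 0.276, and were 0.0597, 0.196 and 0.276 for replicates 4 to 6. With a replicate block 5647 genes were called.

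In batch 1 alone 14 of 157 named genes took the other sign. Of these, 3 were called over all libraries or in batch 1, AT2G28570 (0.44), UCC2 (0.13) and HSP21.7 (-0.33), and the other 11, HSP14.7, HSBP and HSFA4A among them, in neither. In batch 2 alone 10 did, none of them called in either. Of the 74 genes printed with levels 72 were called; UCC2 lost its call under the replicate block, without the filter and without any of 6 libraries, and PORB and 4 LHCB genes with no batch term. The list counts moved most with the batch terms, with 25 light-harvesting genes called higher falling to 0 with no batch term. Without the filter 11 small heat shock proteins were called lower in place of 7. With 2-unit elements 38.2% of chaperone genes and 19.0% of all genes held a match. Among chaperone genes it was 50.0% of those lower in both batches and 27.6% of the others. Within 50 genes on each side 51.0% around HSFA1A were called. The causes were not tested.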
